A study of Mus musculus with 8 samples.

Results

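The genes described here are 40 genes of the smooth muscle contractile apparatus, chosen by symbol from a list of contractile, calcium-handling and regulatory genes of colon muscle. All 40 were found among the 16130 genes of the count table, and all 40 passed the filter on low counts that left 14311 genes for testing. By role they are 5 genes of the myosin motor, its light chain, its kinase and the actins, 10 of the thin filament and of phosphatase control, 12 of the filaments and membrane complexes that anchor it, 8 of calcium handling and its channels, 2 muscarinic receptors, the coactivator gene Myocd, and 2 genes of pacemaker cells.

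The muscle coat of the colon contracts when calcium enters through L-type channels or leaves internal stores. Calmodulin then activates myosin light chain kinase, and the phosphorylated myosin pulls on actin filaments that are tied to dense bodies and to the cell membrane. Acetylcholine drives the process through muscarinic receptors, nitric oxide and cGMP oppose it, and interstitial cells of Cajal, which carry Kit and Ano1, set its rhythm. Most genes of the apparatus are switched on by serum response factor (SRF) with its coactivator myocardin.

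The samples were pieces of distal colon from mice of 1 genotype, Tcf4Het/+ ApcMin/+. ApcMin is a truncating allele of the tumour suppressor Apc that gives intestinal adenomas, and the labels write the second allele as Tcf4Het, which every animal of both groups also carried. Animals had been kept for 4 months in conventional housing (NE, n = 4 libraries) or in enriched housing (EE, n = 4 libraries). The comparison asks which transcripts differ with housing. The labels give neither the age nor the layers of the colon wall that were taken, and they do not say whether each library was 1 animal, so p-values here measure the spread between libraries.

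Counts per library summed to between 4735764 and 10586851, so members of low CPM (counts scaled to a common library size with TMM factors) rest on few reads. In EE 4, for example, Sgcd had 3 counts and Prkg1 2. Libraries EE 3 and EE 4 stood apart. The chi-square per degree of freedom between 2 libraries over genes was 7.15 to 17.9 among the other 6, 16.2 to 43.0 for EE 3 against those 6 and 22.9 to 47.9 for EE 4. Fold changes of the members that are named in the text are given with and without EE 4, the library with the lowest values. Leaving out EE 3 in its place left the members' median log2 fold change at −0.63, with 37 of 40 negative. EE and NE mean the libraries with those column names. The sign of the authors' deposited fold changes was opposite to EE minus NE for 97.8% of the genes tested and for all 40 members, and the file does not name the numerator, so an exchange of the column names and a ratio of NE over EE cannot be told apart. Every log2 fold change that follows is EE minus NE, and gene positions are those of GENCODE M21 on GRCm38 (mm10). For 11 of the members (Mylk, Tagln, Smtn, Ppp1r12b, Des, Synm, Kcnma1, Itpr1, Pln, Atp2a2 and Chrm2) an exon overlaps an exon of a gene on the opposite strand. Whether the counting used strand is not known from the sources used here, so reads of such pairs may not be told apart.

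Transcripts of the contractile apparatus stood lower in the EE libraries, and the difference lay mainly in 2 of them. The summed CPM of 10 core genes (Myh11, Actg2, Acta2, Tagln, Cnn1, Des, Mylk, Synm, Synpo2 and Lmod1) was 13.8% of the NE mean in EE 4 and 47.6% in EE 3. In EE 1 and EE 2 it was 85.6% and 90.3%. The NE libraries were not alike either, since NE 4 was at 72.4% of their mean and NE 1 to NE 3 at 109.8%, 117% and 101%. EE 1 and EE 2 thus lay between NE 4 and the other NE libraries. In pieces of whole tissue, fewer muscle cells and less RNA per muscle cell cannot be told apart.

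**Figure D1:**
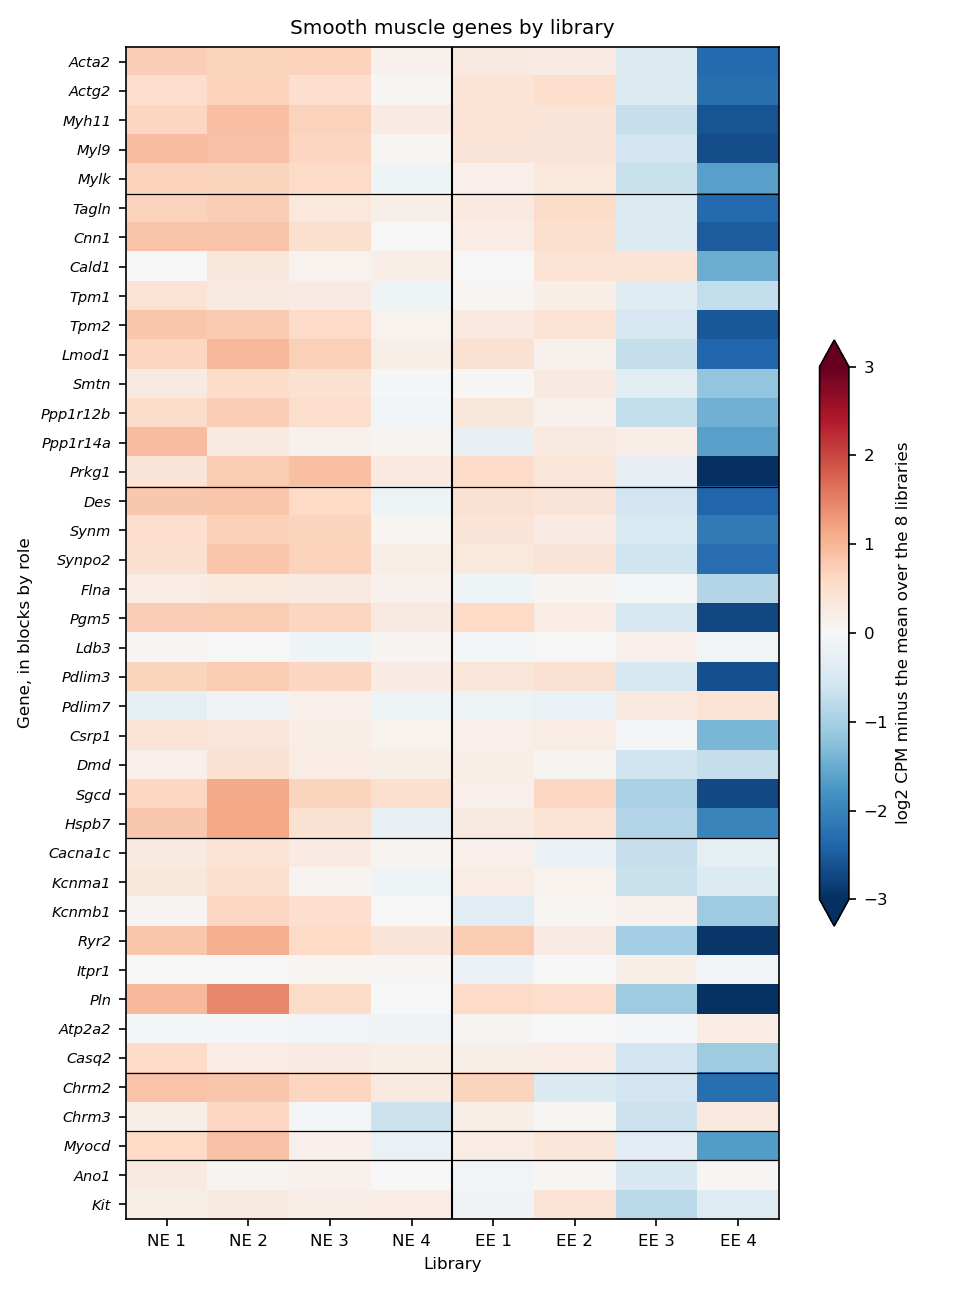
Log2 CPM of each of the 40 genes (rows, in blocks by role) in each of the 8 libraries (columns), as the difference from the gene's mean over the libraries, with red above and blue below that mean. The column of EE 4 is the darkest blue for most genes, EE 3 is paler blue, and Ldb3, Pdlim7, Itpr1 and Atp2a2 stay near white throughout.

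The pattern held across the list. EE 4 had the lowest value of the 8 libraries in 31 members and EE 3 in 4. EE 4 lay below all 4 NE libraries in 35 members and EE 3 in 32, against 36.4% and 31.0% of all genes tested. For EE 1 and EE 2 the counts were 9 and 8, beside 26.1% and 16.8% of all genes. Within NE, library NE 4 held the lowest value in 34 members. For the counts of members lowest in a given library, the share of all genes was not counted. The spread among the EE libraries was wide, with a median coefficient of variation of 51.3% over the members and 21.8% over all genes tested. In NE these medians were 18.4% and 13.8%, and over EE 1 to EE 3 they were 29.7% and 17.7%.

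Against that spread the difference between the groups did not pass. With edgeR's quasi-likelihood test, adjusted by Benjamini-Hochberg over 14311 genes, 0 of the 40 members had an adjusted p under 0.05 (0% of all genes were called). Their adjusted p ran from 0.520 to 0.997. DESeq2 and limma-voom also called 0 members, with DESeq2 calling 0.0839% of all genes. At an unadjusted p under 0.05, 3 members were lower in EE (Cacna1c, Chrm2 and Dmd), beside 3.75% of all genes, and 0 were higher, beside 5.73%. The 4 EE values lay below the 4 NE values without overlap in 1 member, Flna, beside 2.02% of all genes, and above them in 0, beside 2.87%. The count of 3 at an unadjusted p under 0.05 moved with single libraries, as did the share of all genes. It was 0 without NE 1, NE 2 or NE 3 (beside 1.68%, 1.78% and 2.34% of all genes), 5 without NE 4 (beside 4.36%), 12 without EE 1 (beside 4.7%) and 14 without EE 2 (beside 9.15%).

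The direction was shared by nearly the whole list. The fitted log2 fold change was negative in 37 of 40 members, beside 49.7% of all genes tested, and its median was −0.63, beside 0.00 for all genes. Members share their libraries and are not independent, so these counts describe the list and are no test of it. Without EE 4 the log2 fold change was negative in 36 members, beside 49.2% of all genes, with a median of −0.36. In that fit 4 members (Acta2, Lmod1, Cacna1c and Chrm2) were lower at an unadjusted p under 0.05, beside 2.69% of all genes, and 0 passed the adjusted threshold (lowest adjusted p = 0.722).

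**Figure D2:**
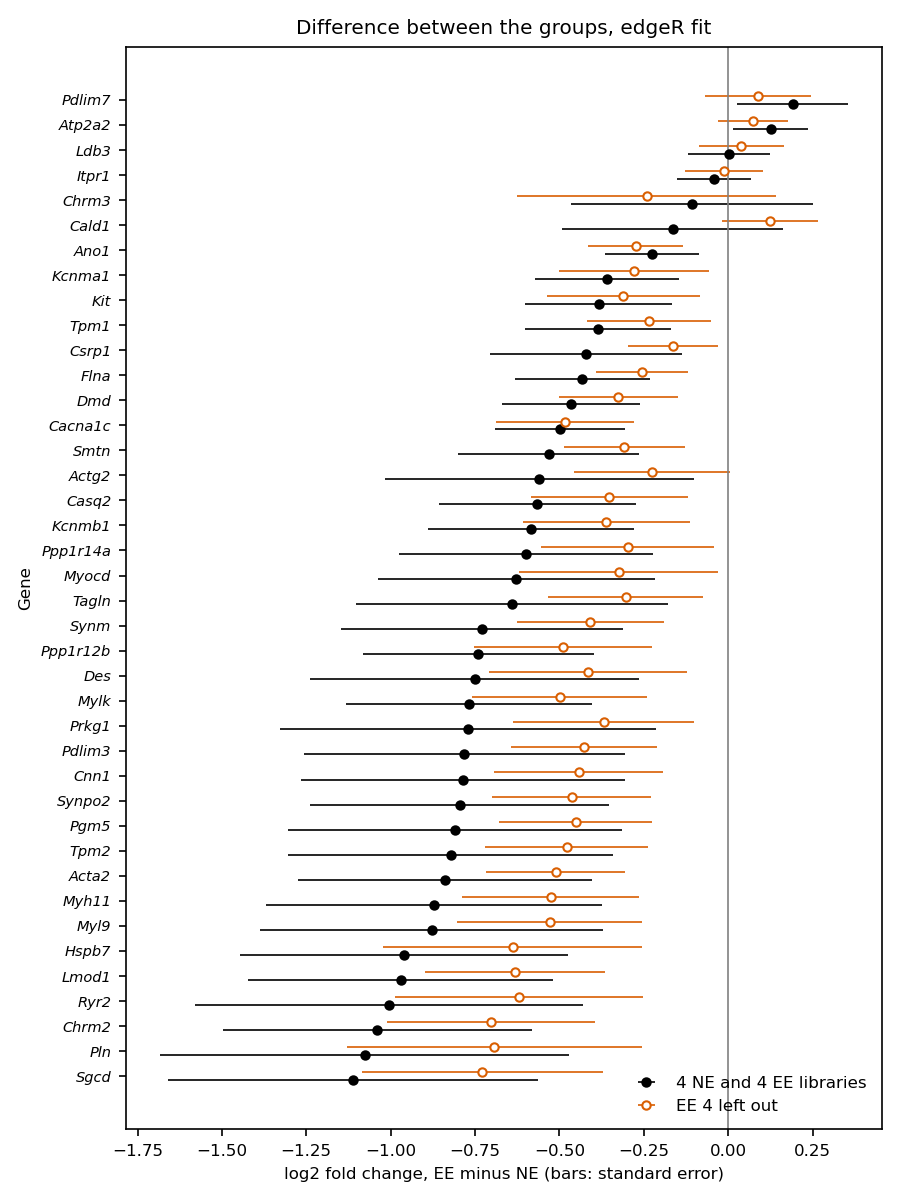
Log2 fold change of each of the 40 genes from edgeR (horizontal axis, EE minus NE, bars are standard errors), with all 8 libraries (filled) and without EE 4 (open), genes ordered by the first. Values run from −1.11 for Sgcd to 0.19 for Pdlim7, and most open points lie closer to 0 with shorter bars.

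Among the motor genes, Myh11 (chr16:14194535-14291372, minus strand) encodes the smooth muscle myosin heavy chain, whose expression outside smooth muscle is slight. It stood at 1122, 1345, 1162 and 853 CPM in NE 1 to NE 4 and 948, 938, 448 and 118 CPM in EE 1 to EE 4. The 3 highest values were those of NE 1 to NE 3, EE 1 and EE 2 lay just above NE 4, and EE 3 and EE 4 lay below every NE library. Its log2 fold change was −0.87 (SE 0.50, adjusted p = 0.554) by edgeR, and −0.53 without EE 4. Myl9 encodes the regulatory light chain that the kinase phosphorylates, and its means were 408 ± 104 and 222 ± 144 CPM (± SD, n = 4 each, NE first).

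The smooth muscle actins differed slightly from each other. Acta2 (chr19:34241090-34255590, minus strand), the alpha actin that vascular muscle, pericytes and myofibroblasts also carry, was at 735, 697, 705 and 482 CPM in NE 1 to NE 4 and 526, 522, 329 and 87.4 CPM in EE 1 to EE 4. NE 4 was the one NE library below EE 1 and EE 2, so the groups overlapped through it alone. The log2 fold change was −0.84 (SE 0.44, adjusted p = 0.537) by edgeR, and −0.51 without EE 4. Actg2 (chr6:83512905-83536265, minus strand), the gamma actin typical of visceral muscle, was at 553, 621, 547 and 395 CPM in NE 1 to NE 4 and 509, 558, 289 and 79.7 CPM in EE 1 to EE 4. Here EE 1 and EE 2 lay within the range of NE 1 to NE 3, or near it, and the log2 fold change was −0.56 (SE 0.46, adjusted p = 0.642) by edgeR, and −0.23 without EE 4. The 2 actins are close in coding sequence, so the split of reads between them depends on how reads were counted, of which the sources used here say nothing.

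Mylk (chr16:34745210-35002420, plus strand), the gene of myosin light chain kinase, stood at 553, 542, 507 and 313 CPM in NE 1 to NE 4 and 379, 421, 216 and 110.2 CPM in EE 1 to EE 4. EE 4 was lowest, but at 23.0% of the NE mean, where Myh11 was at 10.5% and Myl9 at 9.92%. Its log2 fold change was −0.77 (SE 0.36, adjusted p = 0.520) by edgeR, and −0.50 without EE 4. The locus also encodes a long kinase form that other cell types use, and the table holds 1 count per gene for all forms. Over the 5 genes of this group all log2 fold changes were negative, with a median of −0.84, and −0.51 without EE 4.

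**Figure D3:**
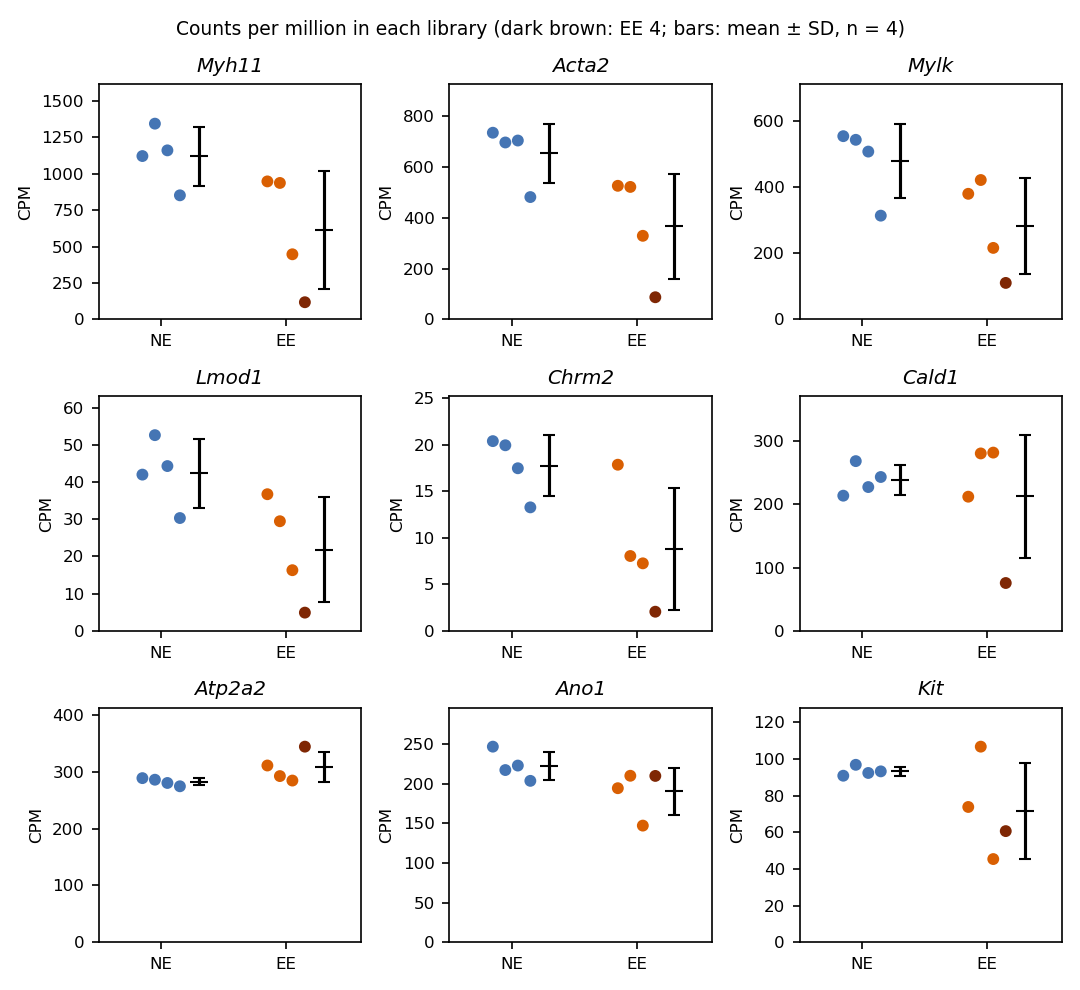
CPM of 9 of the genes in each library (points, vertical axes start at 0), NE in blue, EE in orange and EE 4 in dark brown, with the mean ± SD of each group of 4 beside the points. Myh11, Acta2, Mylk, Lmod1 and Chrm2 are lowest in EE 4, Cald1 is low in EE 4 alone, and Atp2a2 and Ano1 have an EE 4 value within or above the range of the rest.

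Of the 10 thin filament and phosphatase genes, all had a negative log2 fold change (median −0.69, and −0.34 with 9 negative without EE 4). Lmod1 (chr1:135324807-135368065, plus strand), the leiomodin that starts actin filaments in smooth muscle, was at 42.0, 52.6, 44.3 and 30.3 CPM in NE 1 to NE 4 and 36.7, 29.5, 16.3 and 4.91 CPM in EE 1 to EE 4. Only EE 1 reached the NE range, and the log2 fold change was −0.97 (SE 0.45, adjusted p = 0.520) by edgeR, and −0.63 without EE 4. Tagln (transgelin) and Cnn1 (calponin), both actin-binding proteins of differentiated muscle, were at 813 ± 152 and 522 ± 320.0 CPM and 456 ± 115 and 265 ± 162 CPM in NE and EE in turn. The tropomyosins were unlike each other. Tpm2, the beta form, was at 11.2% of its NE mean in EE 4, while Tpm1, the alpha form with splice variants in many cell types, was at 51.4%.

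Cald1 encodes caldesmon, whose long form belongs to smooth muscle and whose short form is found in other cells. It was at 214, 269, 228 and 243 CPM in NE 1 to NE 4 and 212, 281, 282 and 75.8 CPM in EE 1 to EE 4. Apart from the low value in EE 4 its EE values lay within or above the NE range, or in EE 1 just below it, and its log2 fold change of −0.16 turned to 0.12 when EE 4 was left out. The smoothelin gene Smtn was at 69.6 ± 12.5 and 48.4 ± 18.5 CPM in NE and EE. Of the genes that set myosin phosphatase, Ppp1r12b, a targeting subunit of muscle, was at 99.0 ± 22.2 and 59.6 ± 30.3 CPM, and Ppp1r14a, the inhibitor CPI-17, at 12.6 ± 3.95 and 8.32 ± 3.94 CPM. The cGMP-dependent kinase gene Prkg1, which relaxes the muscle, was at 7.32 ± 1.52 and 4.40 ± 3.04 CPM, with 0.317 CPM in EE 4.

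The anchoring genes differed in how far they followed the motor in EE 4. Des (chr1:75360329-75368579, plus strand), the intermediate filament protein desmin of muscle and pericytes, was at 709, 723, 610.5 and 361 CPM in NE 1 to NE 4 and 553, 527, 272 and 77.5 CPM in EE 1 to EE 4. EE 1 and EE 2 lay above NE 4, and EE 3 and EE 4 below it. Its log2 fold change was −0.75 (SE 0.49, adjusted p = 0.584) by edgeR, and −0.42 without EE 4. Synm (synemin, a partner of desmin), Synpo2 (an actin-bundling protein of dense bodies), Pgm5 (aciculin, of adhesion plaques) and Pdlim3 (a PDZ and LIM protein that binds alpha-actinin) had log2 fold changes of −0.73, −0.80, −0.81 and −0.78, and of −0.41, −0.46, −0.45 and −0.43 without EE 4. In EE 4 they stood at 15.9%, 13.6%, 9.57% and 10.4% of their NE means.

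Other anchoring genes stood closer to their NE levels. Flna (chrX:74223461-74249820, minus strand), the actin cross-linker filamin A, was at 1614, 1711, 1669.8 and 1497 CPM in NE 1 to NE 4 and 1249.6, 1467, 1345 and 751 CPM in EE 1 to EE 4. It was the 1 member whose groups did not overlap, with NE 4 at 1497 CPM just above EE 2 at 1467 CPM, and its log2 fold change was −0.43 (SE 0.20, adjusted p = 0.520) by edgeR, and −0.26 without EE 4. Csrp1, a LIM protein of smooth muscle and other cells, had a log2 fold change of −0.42, and −0.16 without EE 4. In EE 4 Flna and Csrp1 were still low, at 46.2% and 32.0% of their NE means. Ldb3 (chr14:34526603-34588682, minus strand), the gene of the Z-disc protein ZASP, was at 27.8, 27.5, 25.0 and 29.0 CPM in NE 1 to NE 4 and 26.3, 27.0, 30.2 and 25.7 CPM in EE 1 to EE 4. The 8 values lay within 25.0 to 30.2 CPM, and the log2 fold change was 0.00 (SE 0.12, adjusted p = 0.997) by edgeR, and 0.04 without EE 4. Pdlim7 (enigma) had its highest values in EE 3 and EE 4, at 77.7 and 83.6 CPM against 52.6 to 69.8 CPM in NE, and a log2 fold change of 0.19, or 0.09 without EE 4.

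In the membrane complex, Dmd (chrX:82948870-85206141, plus strand), the gene of dystrophin, was at 74.8, 91.6, 78.8 and 76.4 CPM in NE 1 to NE 4 and 77.3, 71.2, 44.3 and 40.9 CPM in EE 1 to EE 4. EE 1 lay within the NE range and the other EE libraries below it, and the log2 fold change was −0.47 (SE 0.21, adjusted p = 0.520) by edgeR, and −0.33 without EE 4. Sgcd, the delta subunit of the sarcoglycans that bind dystrophin, had the lowest log2 fold change of the 40, −1.11 (SE 0.55, adjusted p = 0.524) by edgeR, and −0.73 without EE 4, on values of 8.19 ± 1.76 and 3.88 ± 3.11 CPM in NE and EE. Hspb7, a small heat shock protein of muscle, was at 11.3 ± 4.33 and 5.91 ± 3.85 CPM. Of the 12 genes of the group 10 had a negative log2 fold change, with a median of −0.74, and −0.41 without EE 4.

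Calcium handling genes were of unlike behaviour. Ryr2 (chr13:11553102-12106945, minus strand), a calcium release channel of the store, was at 12.2, 14.6, 10.3 and 8.95 CPM in NE 1 to NE 4 and 11.7, 8.04, 3.17 and 0.634 CPM in EE 1 to EE 4. EE 1 lay within the NE range, and the value in EE 4 rests on 4 counts. The log2 fold change was −1.01 (SE 0.57, adjusted p = 0.554) by edgeR, and −0.62 without EE 4. Pln (chr10:53337667-53345987, plus strand) encodes phospholamban, which restrains the calcium pump of the store, and was at 16.4, 22.6, 12.1 and 8.12 CPM in NE 1 to NE 4 and 12.3, 11.9, 3.78 and 0.793 CPM in EE 1 to EE 4. NE 2 was the highest and EE 4 the lowest, with 5 counts in EE 4, and the log2 fold change was −1.08 (SE 0.61, adjusted p = 0.550) by edgeR, and −0.69 without EE 4. Exons of Pln overlap those of Gm47644 and Cep85l on the opposite strand, so some of its counts may belong to them. Casq2, which buffers calcium in the store, was at 10.9 ± 1.50 and 7.40 ± 3.04 CPM in NE and EE.

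The pump and the other release channel were level. Atp2a2 (chr5:122453513-122502225, minus strand), the SERCA2 pump that nearly all cells carry, was at 288, 286, 280.0 and 274 CPM in NE 1 to NE 4 and 311, 292, 284 and 344 CPM in EE 1 to EE 4, and EE 4 was the highest of the 8. Its log2 fold change was 0.13 (SE 0.11, adjusted p = 0.667) by edgeR, and 0.07 without EE 4. Itpr1 (chr6:108213096-108551109, plus strand), the inositol trisphosphate receptor, was at 97.3, 97.9, 101 and 99.3 CPM in NE 1 to NE 4 and 86.0, 95.7, 110.3 and 91.5 CPM in EE 1 to EE 4. EE 1 was the lowest and EE 3 the highest, and the log2 fold change was −0.04 (SE 0.11, adjusted p = 0.887) by edgeR, and −0.01 without EE 4.

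Membrane channels lay between these. Cacna1c (chr6:118587240-119196418, minus strand), the pore of the L-type calcium channel, was at 17.2, 19.1, 16.9 and 14.9 CPM in NE 1 to NE 4 and 15.7, 12.4, 8.61 and 11.7 CPM in EE 1 to EE 4. Here EE 3 was the lowest, EE 4 was not far below EE 2, and only EE 1 overlapped the NE range. Its p was the smallest of the 40. The fitted log2 fold change was −0.50 (SE 0.19, adjusted p = 0.520) by edgeR, and −0.48 without EE 4, so the fold change was of like size with and without that library. Kcnma1, the pore of the BK potassium channel, also had its lowest value in EE 3, at 23.1 CPM against 27.7 CPM in EE 4 and 33.5 to 51.3 CPM in NE. Kcnmb1 (chr11:33963013-33973641, plus strand), the BK beta subunit of smooth muscle, was at 6.0, 8.89, 8.07 and 5.64 CPM in NE 1 to NE 4 and 4.46, 5.93, 6.19 and 2.54 CPM in EE 1 to EE 4, and EE 2 and EE 3 lay inside the NE range. Its log2 fold change was −0.59 (SE 0.31, adjusted p = 0.537) by edgeR, and −0.36 without EE 4. Over the 8 genes 7 were negative with a median of −0.53, and −0.36 without EE 4.

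The muscarinic receptors parted in EE 4. Chrm2 (chr6:36388084-36528414, plus strand), the more abundant receptor of gut muscle, was at 20.4, 19.9, 17.5 and 13.3 CPM in NE 1 to NE 4 and 17.8, 8.04, 7.25 and 2.06 CPM in EE 1 to EE 4. EE 1 lay within the NE range, while EE 2, above NE 4 for Myh11 and Acta2, was below it for Chrm2. Its log2 fold change was −1.04 (SE 0.46, adjusted p = 0.520) by edgeR, and −0.70 without EE 4. Chrm3 (chr13:9875486-10360847, minus strand), which is also found in epithelium, was at 3.16, 4.44, 2.72 and 1.66 CPM in NE 1 to NE 4 and 3.18, 2.87, 1.66 and 3.49 CPM in EE 1 to EE 4. The groups overlapped fully, and EE 4, the lowest library for Chrm2, was second only to NE 2 for Chrm3. The log2 fold change of Chrm3 was −0.11 (SE 0.36, adjusted p = 0.916) by edgeR, and −0.24 without EE 4, on 10 to 31 counts per library. Over the 7 libraries without EE 4, r with Myh11 was 0.798 for Chrm3 and 0.797 for Chrm2.

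Myocd (chr11:65176561-65269989, minus strand), the coactivator that drives the smooth muscle programme through SRF, was at 11.2, 13.6, 8.16 and 6.30 CPM in NE 1 to NE 4 and 8.49, 9.38, 5.74 and 2.06 CPM in EE 1 to EE 4. NE 2 was highest, EE 1 and EE 2 lay within the NE range, and the order of EE 3 and EE 4 was that of the contractile genes. The log2 fold change was −0.63 (SE 0.41, adjusted p = 0.585) by edgeR, and −0.32 without EE 4.

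The pacemaker genes were lowest in EE 3, not in EE 4. Ano1 (chr7:144588549-144751974, minus strand), the calcium-activated chloride channel of interstitial cells of Cajal and of some epithelial cells, was at 247, 217, 223 and 204 CPM in NE 1 to NE 4 and 194, 210.0, 147 and 209.8 CPM in EE 1 to EE 4. EE 4 lay among the NE libraries and EE 1 and EE 3 below them. Kit (chr5:75574916-75656722, plus strand), the receptor tyrosine kinase of interstitial cells of Cajal and mast cells, was at 90.9, 96.9, 92.4 and 93.3 CPM in NE 1 to NE 4 and 73.9, 107, 45.5 and 60.7 CPM in EE 1 to EE 4. The NE libraries lay within a narrow band, EE 2 was above it, and EE 1, EE 3 and EE 4 were below it. The log2 fold changes were −0.23 (SE 0.14, adjusted p = 0.567) for Ano1 and −0.38 (SE 0.22, adjusted p = 0.553) for Kit by edgeR, and −0.27 and −0.31 without EE 4. Of 4 other markers of interstitial cells of Cajal, Etv1, Thbs4 and Edn3 had negative log2 fold changes of −0.61, −0.27 and −0.14, and Prkcq one of 0.30. The 4 mast cell genes tested had a median of 0.23 and summed to 16.6 to 46.6 CPM in NE and 32.5 to 60.5 CPM in EE. The part of mast cells in the level of Kit was not tested.

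Many of the members are textbook targets of SRF, which binds the CArG box. RefSeq promoter windows on GRCm38.p6, from 250 bases before to 50 after each start site, were found for 34 of the 40 genes (43 windows). The 6 others were Myh11, Actg2, Tagln, Myocd, Itpr1 and Atp2a2. The CArG box was found in 3 of the 34 genes (Myl9, Ldb3 and Dmd), or 8.82%, against 1.81% of 27025 genes with a window. A form with 1 G or C among the central A and T bases was found in 5 (Acta2, Myl9, Cacna1c, Synm and Pdlim3), or 14.7%, against 9.69% of all. Both forms read alike on either strand and do not overlap each other. Each match is given with 10 bases on either side, read along the gene, with the match in capitals. Of these genes Myl9, Acta2, Synm and Pdlim3 stood low in EE 4, Dmd and Cacna1c were lowered less there, and Ldb3 was level.
Myl9 (CArG box, chr2:156775293-156775322, plus strand): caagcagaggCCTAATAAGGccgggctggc
Myl9 (1 G or C form, chr2:156775355-156775384, plus strand): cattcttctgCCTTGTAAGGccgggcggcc
Acta2 (1 G or C form, chr19:34255438-34255467, minus strand): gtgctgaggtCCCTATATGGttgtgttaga
Acta2 (1 G or C form, chr19:34255388-34255417, minus strand): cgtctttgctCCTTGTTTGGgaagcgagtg
Synm (1 G or C form, chr7:67759962-67759991, minus strand): caacggggagCCTCATAAGGtgtcccagat
Pdlim3 (1 G or C form, chr8:45885377-45885406, plus strand): tctctcacttCCAAAGTTGGagctctcctt
Dmd (CArG box, chrX:82948762-82948791, plus strand): catgggcagtCCTATTATGGgaaagcaact
Cacna1c (1 G or C form, chr6:119196420-119196449, minus strand): cagagaagaaCCAAGAAAGGaggagtgctt
Cacna1c (1 G or C form, chr6:118758039-118758068, minus strand): tgagatagctCCTTCATTGGaaaccgcacc
Ldb3 (CArG box, chr14:34588697-34588726, minus strand): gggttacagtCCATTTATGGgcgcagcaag
The matches began 161 and 99 bases before the RefSeq start in Myl9, 84 and 34 in Acta2, 239 in Synm, 100 in Pdlim3, 98 in Dmd, 35 in Ldb3, and 30 and 84 before 2 separate starts of Cacna1c. GENCODE M21 places the Acta2 start farther upstream, so that both Acta2 matches lie within the bounds of the gene there. In EE 4 Myl9 stood at 9.92%, Acta2 at 13.3%, Synm at 15.9% and Pdlim3 at 10.4% of the NE mean. Dmd stood at 50.9%, Cacna1c at 68.9% and Ldb3 at 94.0%. Genes with a match were thus found among the members lowest in EE 4 and among those level across libraries. The wider window of Dmd, the 250 bases before the more upstream of its 2 starts in the table, is shown for the setting of its CArG box.
Dmd (chrX:82948620-82948869, plus strand): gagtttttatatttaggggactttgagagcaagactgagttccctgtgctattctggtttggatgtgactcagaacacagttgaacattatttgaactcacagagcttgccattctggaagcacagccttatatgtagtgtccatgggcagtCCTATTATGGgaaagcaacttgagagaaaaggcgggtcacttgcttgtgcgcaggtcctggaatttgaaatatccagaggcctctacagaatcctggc
A match is a run of letters and not a measured site, and the shares describe a chosen list.

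Levels can be compared between genes only per length. On the scale of CPM per kilobase of exon, from the union of exons in GENCODE M21, the members spanned 0.302 (Ryr2) to 336 (Tagln) as means over the 8 libraries. By the mean of the NE libraries the order began with Tagln, Myl9, Actg2, Acta2 and Csrp1. In NE their levels per kilobase were 409 ± 76.4, 351 ± 89.1, 339.7 ± 61.3, 298 ± 53.0 and 277 ± 26.6, so neighbours in the order did not differ beyond their spread. Myh11, ranked 10, was at 147 ± 26.7 in NE. Ryr2, Chrm3, Prkg1, Cacna1c, Sgcd and Myocd were the lowest 6, with Myocd at 1.53 ± 0.504 and Cacna1c at 0.803 ± 0.0801 in NE. With the longest transcript as the length in place of the union, Cacna1c was at 1.29 and Ryr2 at 0.685 in NE, against 0.400 for Ryr2 by the union. The order in NE then began with Tagln, Actg2, Tpm1, Myl9 and Acta2, with Tpm1 at 367 against 163 by the union. Among the lowest 6, Kcnmb1 took the place of Myocd. Of the group means per kilobase, 37 moved by at least their SD and 43 by less, so the order depends on the length used.

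**Figure D4:**
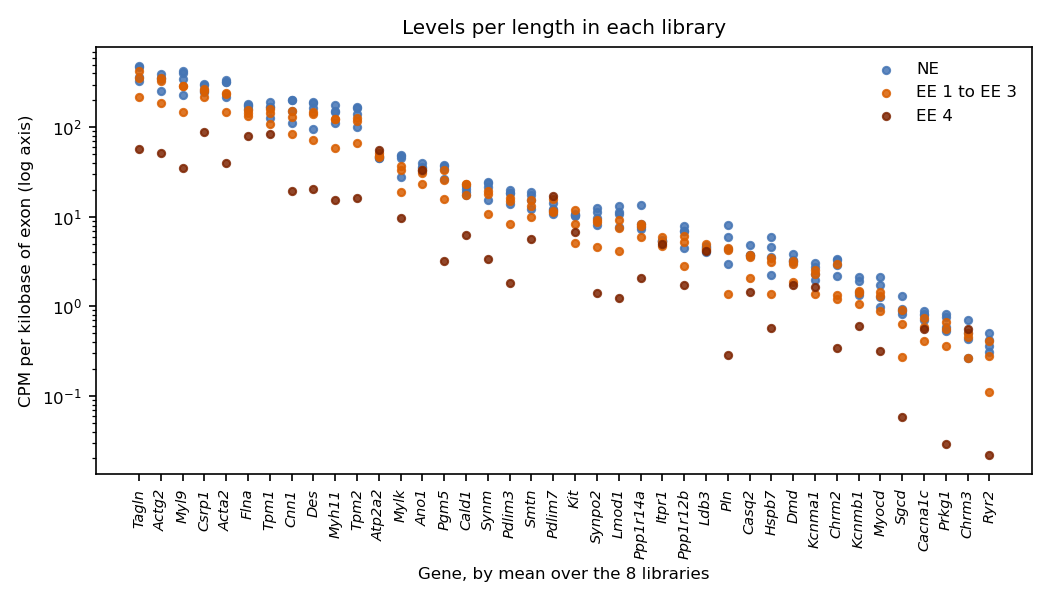
CPM per kilobase of exon (vertical log axis) of the 40 genes in each library, ordered by the mean over the 8 libraries, with NE in blue, EE 1 to EE 3 in orange and EE 4 in brown. The points of EE 4 fall away from the others for most genes and sit with them for Atp2a2, Ano1, Pdlim7, Itpr1, Ldb3 and Chrm3.

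Ratios between members within a library show how evenly the apparatus varied. Per kilobase, Actg2 to Acta2 was 1.06, 1.26, 1.09 and 1.16 in NE 1 to NE 4 and 1.36, 1.51, 1.24 and 1.29 in EE 1 to EE 4. The ratio was higher in 3 of the EE libraries than in every NE library, EE 3 lay just under NE 2, and EE 4 was not extreme. Tpm2 to Tpm1 was 0.887, 0.972, 0.849 and 0.792 in NE 1 to NE 4 and 0.796, 0.785, 0.615 and 0.192 in EE 1 to EE 4, with the lowest ratios in EE 3 and EE 4. Pln to Atp2a2, the brake and the pump of the calcium store, was 0.125, 0.175, 0.0953 and 0.0653 in NE 1 to NE 4 and 0.0874, 0.0895, 0.0293 and 0.00508 in EE 1 to EE 4. That ratio was lowest in EE 4 and next lowest in EE 3, through Pln, since Atp2a2 was level. Chrm2 to Chrm3 was 6.66, 4.63, 6.63 and 8.26 in NE 1 to NE 4 and 5.79, 2.89, 4.51 and 0.610 in EE 1 to EE 4, and EE 4 was the 1 library with less Chrm2 than Chrm3 per kilobase.

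To separate the overall level from the makeup, each gene's deviation from its own mean was set against the median deviation of the 10 core genes in the same library. That core median was 0.67, 0.78, 0.63 and 0.10 (log2) in NE 1 to NE 4 and 0.35, 0.39, −0.52 and −2.33 in EE 1 to EE 4. Relative to it, 16 of the 40 members lay within 0.5 (log2) in EE 4. Of these, 9 are core genes, which set the reference, and 7 are not (Myl9, Tpm2, Pgm5, Pdlim3, Sgcd, Hspb7 and Chrm2). Another 15 lay more than 1 above it. The median deviation of all genes tested was −0.01 in EE 4, so a gene that is level there lies far above the core median. For the counts of 16 and 15 members the share of all genes was not counted. The farthest above were Pdlim7 (2.73), Chrm3 (2.63), Atp2a2 (2.56), Ano1 (2.37), Itpr1 (2.25) and Ldb3 (2.25). Among the channels Cacna1c was at 2.07 and Kcnma1 at 1.93, while the store channel Ryr2 was at −0.57. Relative to the core, 1 of the 40 members (Actg2) did not overlap between the groups, beside 4.69% of all genes that were higher in EE without overlap on the same scale. Its values ran from −0.15 to −0.06 in NE and from 0.05 to 0.15 in EE. Actg2 is itself 1 of the core genes, and it was singled out after the 40 values were seen. With Myh11 alone as the reference, Actg2 and Kcnma1 did not overlap, both higher in EE (beside 11.5% of all genes), and the difference between the groups was 0.37 for Actg2 against 0.20 relative to the core.

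Likeness to Myh11 across libraries gave a like division, described here with no test. Pearson's r of log2 CPM with Myh11 over the 8 libraries was above 0.9 in 27 of the other 39 members, beside 4.12% of all genes tested. The highest were Synpo2 (0.999), Pdlim3 (0.996), Synm (0.996) and Lmod1 (0.995). These values share the wide range that EE 4 and EE 3 give. Without EE 4, 24 members were above 0.9, beside 4.55% of all genes, and over the 6 libraries left without EE 3 and EE 4, 8 were, beside 0.971%. Without EE 4, over 7 libraries, r of the 4 genes was 0.992, 0.993, 0.977 and 0.982. Some members were alike to Myh11 only in those 7, with r of 0.950 for Kcnma1, 0.953 for Cacna1c and 0.913 for Ano1 against 0.745, 0.646 and 0.314 with EE 4. Cald1 went the other way, from 0.832 with EE 4 to −0.425 without it. Outside the list the 10 genes most like Myh11 were Rgs7bp, Cav1, Atp2b4, Sparcl1, Abca8a, Mrvi1, Popdc2, Meis1, Sspn and Sdpr, with r from 0.991 to 0.996 over the 8 libraries, from 0.947 to 0.993 without EE 4, and from 0.760 to 0.980 without EE 3 and EE 4.

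Other genes of the same pathways were read from lists that do not hold the members, and 0 of the 61 genes tested in them passed the edgeR test at an adjusted p under 0.05 (6 were lower and 2 higher at an unadjusted p under 0.05, or 9.84% and 3.28%, beside 3.75% and 5.73% of all genes). All 7 genes of the nitric oxide and cGMP pathway had negative log2 fold changes (median −0.61, and −0.34 without EE 4). Gucy1a3, a subunit of the nitric oxide receptor, was at 25.2 ± 5.77 and 11.8 ± 7.63 CPM in NE and EE, and Pde5a, which breaks down cGMP, at 227 ± 24.2 and 183 ± 29.4 CPM. Of 20 further calcium and channel genes 17 were negative (median −0.26), and 16 without EE 4 (median −0.27), with Trpc1, a cation channel, at 4.30 ± 0.788 and 2.18 ± 0.844 CPM and Cacna2d1, an auxiliary subunit of calcium channels, at 35.3 ± 5.52 and 22.3 ± 8.91 CPM.

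SRF, its cofactors and other transcription factors had 6 of 11 negative (median −0.10), and 6 without EE 4 (median −0.02). Tead1, a factor of the Hippo pathway, was at 55.5 ± 8.62 and 82.9 ± 32.8 CPM, with 129.8 CPM in EE 4, and Mef2c at 13.4 ± 1.37 and 8.89 ± 4.07 CPM. Srf itself was at 41.4 ± 8.84 and 38.0 ± 8.06 CPM, where Myocd was at 9.82 ± 3.24 and 6.42 ± 3.29 CPM. Of 23 adhesion plaque and dystrophin complex genes 13 were negative (median −0.03), and 17 without EE 4 (median −0.04). Sgce, the epsilon sarcoglycan, was at 11.1 ± 0.755 and 5.76 ± 2.75 CPM, and Sntb1, a syntrophin, at 6.16 ± 1.98 and 9.90 ± 2.52 CPM.

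Markers of other cell types were low in some of the same libraries, and their part in the differences was not tested. In EE 4 the median deviation was −1.82 (log2) for 5 enteric glia genes, −1.67 for 9 enteric neuron genes, −1.64 for 10 fibroblast genes, −1.39 for 9 pericyte genes and −1.04 for 9 endothelial genes. The core contractile genes were at −2.33 there, macrophage genes at −0.93 and fat cell genes, which varied widely among all libraries, at −3.05. In EE 3, where the core stood at −0.52, glia and neurons were at −0.94 and −0.82, but fibroblast and endothelial genes were at 0.25 and 0.14, within or at the edge of the NE ranges of 0.24 to 0.28 and 0.14 to 0.25. Pericyte genes were at −0.11 in EE 3, below the NE range of 0.17 to 0.42, and fat cell genes at −0.33. Macrophage genes were at 0.59 there, above the NE range of 0.08 to 0.32. The list of interstitial cells of Cajal, which holds Kit and Ano1, was at −0.63 in EE 3 and −0.53 in EE 4. The pericyte list includes Des, itself a member, and summed to 169.8 CPM in EE 4 against 872 to 1427 CPM in NE. The 12 epithelial genes went both ways in EE 4, where 8 lay below every NE library and 3 (Cdh1, Krt18 and Elf3) above. In EE 3, 9 lay below and 0 above. Summed, and so weighted to abundant genes such as Lgals4, they came to 10739 and 11807 CPM in EE 3 and EE 4, 16604 and 15742 CPM in EE 1 and EE 2, and 14012 to 17707 CPM in NE.

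**Figure D5:**
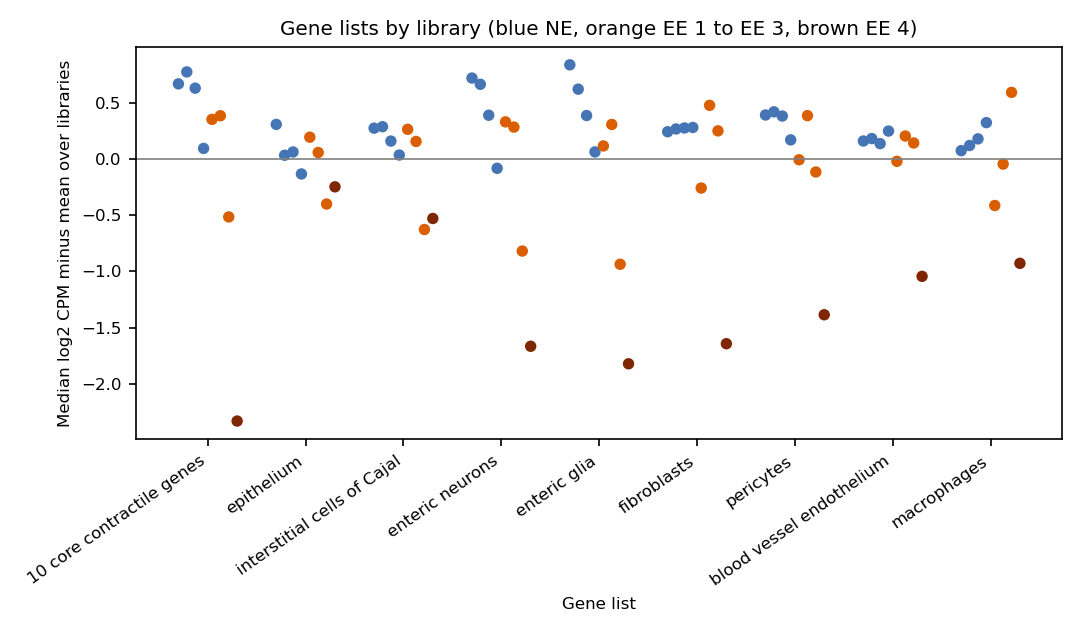
Median over each list of the genes' deviations (log2 CPM less the mean of all 8 libraries, vertical axis), for the 10 core contractile genes and 8 lists of cell type markers (horizontal axis), 1 point per library in the order NE 1 to EE 4. EE 4 (brown) is lowest in the core, neuron, glia, fibroblast, pericyte, endothelial and macrophage lists, and EE 3 is lowest for epithelium and interstitial cells of Cajal.

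Markers of striated muscle were low in every library. Of 12 skeletal muscle markers 7 were matched to the table and 4 passed the filter. Those 4 (Acta1, Ckm, Neb and Ttn) summed to 25.7 to 37.7 CPM in each of the 8 libraries, where Myh11 alone was at 118 to 1345 CPM. The highest sum was that of EE 4, and single genes in it went both ways. Ckm was at 1.43 CPM in EE 4 against 7.29 to 12.6 CPM in NE. Neb was at 20.8 CPM in EE 4 against 1.42 to 6.74 CPM in NE. Of 6 cardiac markers Tnnt2 passed the filter, at 5.05 to 10.3 CPM.

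The members' calls depended on the model of the spread, and those of the trend dispersion were lost when EE 4 was left out. Among the fold changes the authors deposited, 19 of the 40 members had an FDR under 0.05, all with a positive deposited fold change, which is the sign of higher NE columns. By that rule 1.32% of the 16130 genes were called in the same direction and 1.07% in the other. The authors' deposited table gave Myh11 a log2 fold change of 1.22 (FDR 8.16e-05), Acta2 1.08 (FDR 2.90e-04), Chrm2 0.80 (FDR 0.00649), Pln 0.80 (FDR 0.00792) and Cacna1c 0.35 (FDR 0.463). DESeq2 with every gene given the dispersion of the fitted trend, an alternative chosen after the data were seen, called 16 members, all lower in EE, beside 1.07% of all genes. All 16 were among the 19 of the authors' deposited table. When EE 4 was left out, the same model called 0 of the 40 members, beside 0.282% of all genes, with adjusted p of 0.181 for Myh11 and 0.211 for Acta2. No other library was left out under that model. The part of EE 4 itself thus cannot be told from the loss of 1 library. The edgeR, DESeq2 and limma-voom fits that estimate the spread of each gene called 0 members with EE 4 in or, for edgeR, with it left out.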

How the data were processed

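RNA of distal colon was sequenced as 8 libraries, from a stranded kit with ribosomal RNA depletion and single reads, per the labels' protocols. The submitters' processing notes name Novoalign 2.08.01, DESeq 1.14.0 and mm10, without their roles. The counting step, its annotation and its strand setting were not given in the sources used here. The authors deposited 1 table with whole-number counts per gene and library, a log2 fold change per gene, and an FDR per gene, which is a p-value adjusted for multiple testing. The 149 entries without a usable gene symbol were kept under their Ensembl identifiers. Groups were taken from the sample titles.

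The main test was edgeR 4.0.16 (quasi-likelihood, robust, TMM scaling, R 4.3.3) on the counts of all genes that passed edgeR's filter on low counts, with p adjusted by Benjamini-Hochberg and called under 0.05. CPM values use TMM sizes, and log2 CPM has a prior count of 2. The biological coefficient of variation was 0.219. The script was tested on simulated data. Alternatives were DESeq2 1.42.0, limma-voom (limma 3.58.1), other scalings and filters, each library left out, the replicate number as a block, and, chosen after the data were seen, DESeq2 with the trend dispersion. Members with few reads also carry counting error, but the spread between libraries was wide at high counts too. The edgeR SE was 0.61 for Pln on 590 counts over the 8 libraries and 0.50 for Myh11 on 47086.

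Members, pathway lists and cell type lists were chosen with earlier results of these data known. Named in full were Acta2, Actg2, Myh11, Mylk, Des, Lmod1, Myocd, Kcnmb1, Cacna1c, Ryr2, Pln, Chrm2, Chrm3, Kit and Ano1, and the 3 members with the smallest and the 3 with the largest p. In each pathway list the 2 genes with the smallest p were named, and outside the lists the 10 most like Myh11. Another pathway list is not reported here. Other genes (Flna, Cald1, Atp2a2, Srf and those given by mean and SD) were chosen after their values were seen. Exon lengths came from GENCODE M21, and promoters from RefSeq on GRCm38.p6.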

Additional observations from a re-analysis of the deposited data

Results flagged for a closer look

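In 3 of 80 sets of 4 libraries (each of the 40 members in each group), 1 library lay far from the other 3, by Dixon's ratio of the gap to the whole range at its usual 95% limit. Chance flags about 1 in 20 such sets. Acta2 in NE had a ratio of 0.873, with NE 4 low at 482 CPM against 697 to 735 CPM. Mylk in NE had a ratio of 0.845, with NE 4 low at 313 CPM against 507 to 553 CPM. Casq2 in NE had a ratio of 0.898, with NE 1 high at 13.1 CPM against 9.95 to 10.2 CPM. No set of EE libraries had such a gap.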

How the results depend on the processing

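The median log2 fold change of the members stayed negative in every alternative, from −0.89 without EE 2 to −0.36 without EE 4. The count of all genes called was 12 with DESeq2, 270 with the trend dispersion, 84 with the trend dispersion and EE 4 left out, and 0 to 1 with each library left out. Members at an unadjusted p under 0.05, 3 with edgeR, numbered 9 with DESeq2, 14 with limma-voom, 27 with the trend dispersion, 18 with it and EE 4 left out, and 0 to 14 with each library left out. The shares of all genes lower in EE at that p were 4.21%, 5.76%, 5.59%, 3.15% and 1.68% to 9.15% in turn. With a replicate block the count was 29, beside 5.39% of all genes, and 0 genes were called. The labels do not say what the replicate numbers share, and whether same-numbered libraries are pairs was not tested. The deviations of same-numbered libraries had r = 0.25, 0.01, −0.18 and −0.04 for numbers 1 to 4. The core median was 0.67, 0.78, 0.63 and 0.10 (log2) in NE 1 to NE 4. In EE 1 to EE 4 it was 0.35, 0.39, −0.52 and −2.33, so the numbers ran in the same order in both groups. Only NE 1 and EE 1 correlated best with their own number. EE 2 correlated best with NE 1 (r = 0.22), EE 3 with NE 4 (r = 0.49) and EE 4 with NE 3 (r = 0.26). Sign changes were confined to the log2 fold change of Ldb3 (−0.0039 with upper-quartile scaling, −0.0427 to 0.0390 with each library left out), the log2 fold change of Chrm3 (−0.29 to 0.14), the log2 fold change of Itpr1 (−0.11 to 0.0062) and the log2 fold change of Cald1 (−0.33 to 0.12, and 0.11 with the trend dispersion and EE 4 left out), and the cause was not tested. Of the other member values under the alternatives, 656 kept their sign and side of the threshold and 16 passed it, all 16 with the trend dispersion. No scaling moved the median of all genes by over 0.1 (log2). Chrm3, Prkg1, Sgcd, Ryr2 and Pln had few counts, so counting error adds to the spread between their libraries.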
